A study of Mus musculus with 18 samples.

Results

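Genes that fibroblasts use to signal to immune and bone cells were followed through every library of the series: *Il6*, *Il11*, *Lif*, *Il33*, *Cxcl1*, *Cxcl5*, *Cxcl12*, *Ccl2*, *Ccl7* and *Tnfrsf11b*. They were chosen by name, as the 10 rows of the gene count table, out of 55491, that carry these symbols, and each symbol matched 1 row. Poly-A RNA was sequenced from 18 cultures of tendon fibroblasts (TFs). The cells came from tail tendons of adult male and female mice and were kept at their O2 level for 4 days. The 6 groups held 3 libraries each: Ctrl TFs, labelled wild-type and described as Cre-negative, in 20% or 1% O2; cKO TFs, in which Cre driven by the tendon gene *Scx* deletes a floxed *Hif1a* (*Hif1a* flox/flox; *Scx*Cre), in 20% or 1% O2; and Ctrl TFs treated with Cre gesicles, vesicles that carry the recombinase protein into cells, in 20% or 1% O2. The mice had a mixed C57BL6J/129S1 background. The paper describes its Cre-negative Ctrl mice as *Hif1a* flox/flox, so Ctrl TFs would carry the floxed gene, which the wild-type label does not show. Nothing in the labels says that libraries of a group came from separate mice, so p-values measure the spread between these libraries.

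The genes fall into families with known roles. *Il6*, *Il11* and *Lif* encode cytokines of the interleukin-6 family, which signal through the shared receptor gp130 and STAT3, and *Il33* encodes an alarmin that is stored in the nucleus and read by the receptor ST2 on immune cells. *Cxcl1* and *Cxcl5* encode chemokines that draw neutrophils through CXCR2, *Ccl2* and *Ccl7* encode chemokines that draw monocytes through CCR2, and *Cxcl12* encodes a chemokine of stromal cells that holds CXCR4-bearing cells in place. *Tnfrsf11b* encodes osteoprotegerin, a secreted decoy receptor that binds RANKL and thereby restrains osteoclast formation. Many of these genes are classical targets of NF-kB, AP-1 and C/EBP factors, and fibroblasts of tendon are known to make them after injury and under inflammatory stimulation.

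Library totals ranged from 6857558 counts in cKO 1% O2 replicate 1 to 51806453, and the second smallest total was 26967440. With 3 counts as the floor, the smallest level a library could show lay between 0.0579 and 0.437 CPM (counts of a gene scaled by the library's total), which covers counting error only. *Hif1a* itself did not separate the groups: its gene-level value was 348 ± 19.6 CPM in Ctrl and 377 ± 72.8 CPM in cKO TFs in 20% O2, and 420 ± 62.9 and 443 ± 54.3 CPM in 1% O2 (mean ± SD, n = 3), and a count over the whole gene cannot show the loss of part of it. Counts of a *Cre* sequence were found in 5 of the 6 cKO libraries, at most 5 in a library, and in 0 libraries of the other groups. The 15 tendon fibroblast markers were all counted, with a summed level of 8750 to 23200 CPM. Markers of leukocytes, 14 in number, summed to 20.8 to 39.4 CPM. Among them *Ptprc* was at most 0.162 and *Adgre1* at most 0.136 CPM, while *Lyz2* was at 8.57 to 22.2 and *Cd14* at 6.27 to 16 CPM. Endothelial markers, 9 in number, summed to 14.2 to 78 CPM, with *Pecam1* at most 0.291, *Cdh5* at most 0.65 and *Tek* at 11.3 to 76.5 CPM. Keratinocyte and epithelial markers, 10 in number, summed to 16.5 to 34.1 CPM, with *Dsp* at 10.4 to 30 CPM. In bulk RNA, fewer cells that make a transcript and less of it per cell cannot be told apart.

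On GRCm38, *Ccl2* (ENSMUSG00000035385, chr11:82035571-82037453) and *Ccl7* (ENSMUSG00000035373, chr11:82045712-82047525) lie side by side on the plus strand, 8.26 kb apart with 0 protein-coding genes between them. *Cxcl5* (ENSMUSG00000029371, chr5:90759360-90761624) and *Cxcl1* (ENSMUSG00000029380, chr5:90891241-90893115) lie 129.62 kb apart on the plus strand, with 4 protein-coding genes between them. The other members stand alone: *Il6* (ENSMUSG00000025746, chr5:30013114-30019981, plus), *Il11* (ENSMUSG00000004371, chr7:4772373-4782859, minus), *Lif* (ENSMUSG00000034394, chr11:4257557-4272514, plus), *Il33* (ENSMUSG00000024810, chr19:29925114-29960718, plus), *Cxcl12* (ENSMUSG00000061353, chr6:117168535-117181367, plus) and *Tnfrsf11b* (ENSMUSG00000063727, chr15:54250619-54278484, minus). In the annotation, 0 of the 10 share exon bases with another gene. Runs of 50 bases that also occur in transcripts of other genes made up 2.696% of *Il11* and 0.693% of *Cxcl5* and 0% of the other members, so reads shared with other genes bear little on these counts.

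RefSeq start sites on GRCm38.p6 were at hand for 6 of the 10 members, and the 250 bases before each start were searched on both strands for an NF-kB core (GGANTTTCC), the AP-1 motif (TGANTCA), a C/EBP motif (TTNNGNAA) and the HIF core (ACGTG or GCGTG), and on the sense strand for a TATA box (TATAAA). The sequences of *Il6*, *Cxcl1*, *Il33* and *Cxcl12* are shown because the first pair holds the rarest of these motifs, *Cxcl1* and *Il33* carry the O2 differences described further on, and *Cxcl12*, the chemokine with the clearest genotype difference, holds 0 of them. Capitals mark the matches, and no match overlaps another.
Il6, chr5:30012864-30013113, plus strand: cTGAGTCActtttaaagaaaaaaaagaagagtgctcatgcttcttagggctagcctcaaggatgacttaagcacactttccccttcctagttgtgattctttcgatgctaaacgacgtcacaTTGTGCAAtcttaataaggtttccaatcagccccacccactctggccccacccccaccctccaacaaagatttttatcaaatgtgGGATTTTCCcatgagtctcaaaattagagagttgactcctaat
Cxcl1, chr5:90890995-90891244, plus strand: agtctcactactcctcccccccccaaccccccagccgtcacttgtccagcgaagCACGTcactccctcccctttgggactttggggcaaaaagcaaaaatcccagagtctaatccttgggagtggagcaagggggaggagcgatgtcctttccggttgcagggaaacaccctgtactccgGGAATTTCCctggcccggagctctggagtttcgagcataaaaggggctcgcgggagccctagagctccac
Il33, upstream start, chr19:29924863-29925112, plus strand: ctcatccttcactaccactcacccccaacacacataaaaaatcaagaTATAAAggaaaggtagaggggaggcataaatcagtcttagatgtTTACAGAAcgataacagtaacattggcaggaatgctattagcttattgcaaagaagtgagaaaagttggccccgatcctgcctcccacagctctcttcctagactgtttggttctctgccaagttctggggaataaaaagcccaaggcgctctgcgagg
Il33, downstream start, chr19:29945540-29945789, plus strand: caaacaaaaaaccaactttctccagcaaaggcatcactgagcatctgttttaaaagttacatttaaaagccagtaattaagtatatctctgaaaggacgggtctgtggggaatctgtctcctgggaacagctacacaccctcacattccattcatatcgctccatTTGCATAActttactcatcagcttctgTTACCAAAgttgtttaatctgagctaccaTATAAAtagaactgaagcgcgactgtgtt
Cxcl12, chr6:117168285-117168534, plus strand: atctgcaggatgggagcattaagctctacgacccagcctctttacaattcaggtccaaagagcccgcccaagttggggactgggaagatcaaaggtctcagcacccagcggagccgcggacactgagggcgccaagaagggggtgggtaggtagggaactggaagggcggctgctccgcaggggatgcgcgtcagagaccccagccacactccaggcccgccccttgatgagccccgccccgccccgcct
The NF-kB core began 43 bases before the start of *Il6* (position -43) and 70 bases before that of *Cxcl1* (position -70), and 1.07% of all 32851 RefSeq promoters of the same length hold it. *Il6* also holds an AP-1 motif at position -249 and a C/EBP motif at -128, and *Cxcl1* a HIF core at -196. *Il33* holds a TATA box at -29 of its downstream start, with C/EBP motifs at -85 and -58, and at its upstream start a TATA box at -203 and a C/EBP motif at -159. Of the members not printed, *Lif* holds AP-1 at -228 and a HIF core at -204, and *Il11* an AP-1 motif at -98 of 1 of its starts. Among all promoters 6.75% hold the AP-1 motif, 36.8% the C/EBP motif, 38.6% a HIF core and 7.59% the TATA box. These are matches of letters only, and say nothing of binding in these cells.

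Per kilobase of exon, taken over all annotated transcripts of a gene, the monocyte chemokines led. The order depends on that length, which was 8176 bases for *Cxcl12* and 1138 for *Ccl2*. In CPM the mean of *Cxcl12* (199) was above that of *Ccl2* (115). *Ccl7* had a mean level of 285 ± 118 CPM per kb over the 18 libraries (SD) and *Ccl2* one of 101 ± 46.4. *Cxcl12* followed at 24.3 ± 10.7, *Tnfrsf11b* 12.3 ± 3.64 and *Cxcl5* 6.71 ± 4.64. The remaining members were low: *Cxcl1* at 1.81 ± 0.929 CPM per kb, *Il11* at 1.53 ± 0.582, *Lif* at 0.575 ± 0.181, *Il33* at 0.263 ± 0.394 and *Il6* at 0.0973 ± 0.0921. *Ccl7* was above *Ccl2*, and *Ccl2* above *Cxcl12*, in 18 of 18 libraries, as *Cxcl5* was above *Cxcl1* and *Il11* above *Lif*. *Cxcl12* was above *Tnfrsf11b* in 16, *Tnfrsf11b* above *Cxcl5* in 17 and *Lif* above *Il33* in 15 libraries. *Cxcl1* and *Il11* did not differ beyond their spread, with *Cxcl1* higher in 14 of 18 libraries and a median ratio of 1.21, and *Il33* was above *Il6* in 11 libraries only. *Il6* never exceeded 34 counts in a library and was too low to be tested in the fit of the Ctrl and cKO libraries, which tested the other 9 members.

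**Figure D1:**
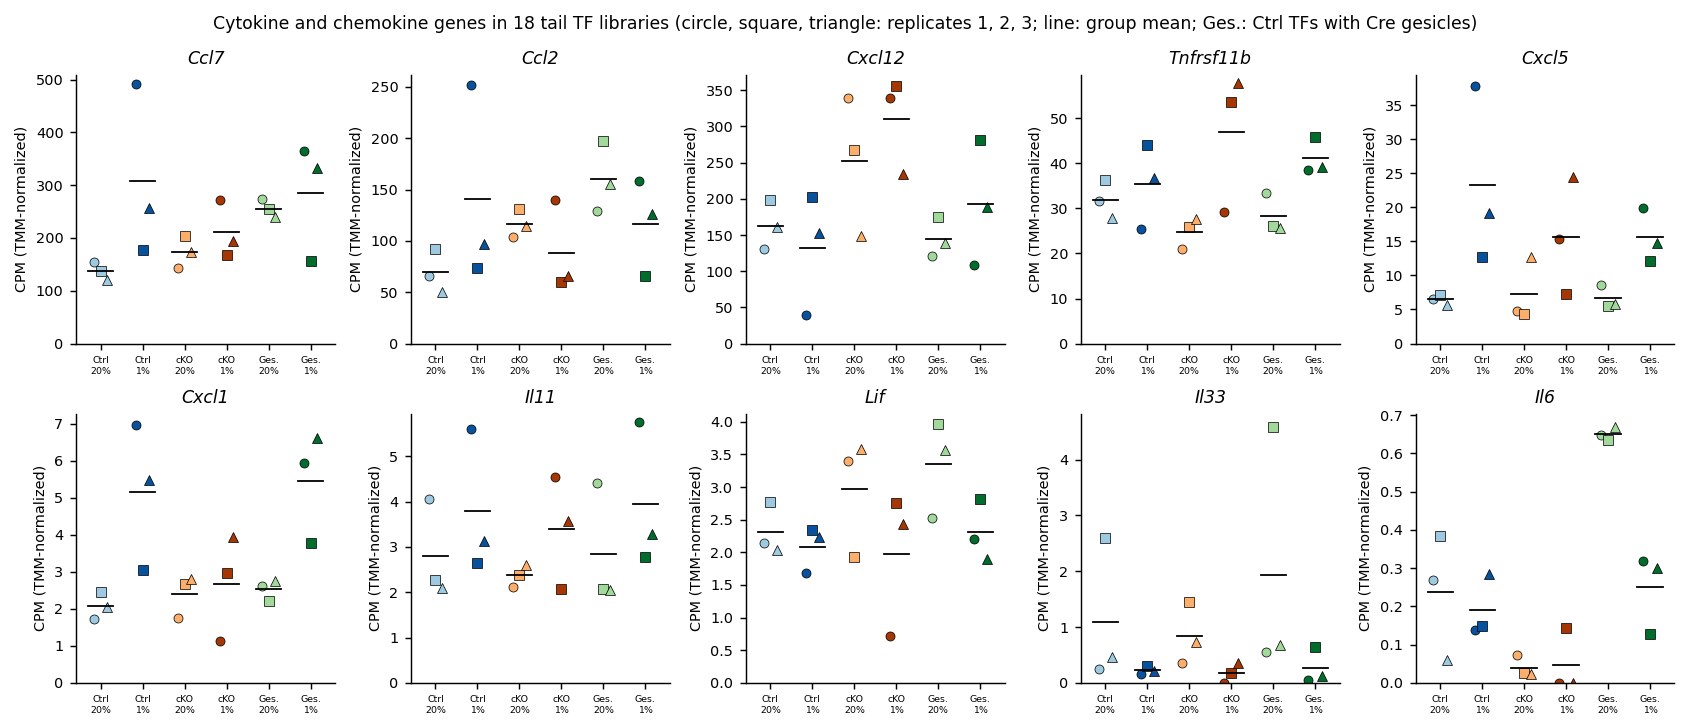
Level of each of the 10 genes in CPM normalized by TMM (vertical axes, linear from 0) in the 18 libraries, by group (horizontal axis). Circles, squares and triangles are replicates 1, 2 and 3 and lines are group means. *Cxcl5* and *Cxcl1* sit higher in 1% than in 20% O2 in Ctrl and gesicle-treated TFs without overlap, *Il33* sits lower in 1% O2, and Ctrl 1% O2 replicate 1 holds the highest *Ccl7*, *Ccl2*, *Cxcl5* and *Cxcl1* and the lowest *Cxcl12*.

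The first question was how 4 days in 1% O2 changed each gene. A gene was called at a Benjamini-Hochberg adjusted p under 0.05 in edgeR's quasi-likelihood test and a fold change of at least 1.5. Within single arms 0 members were called: 0 of 9 in Ctrl TFs, where 1.88% of all 15850 genes tested were called, 0 of 9 in cKO TFs against 2.1%, and 0 of 10 in gesicle-treated TFs against 2.41% of 16174 genes. At an unadjusted p under 0.05 with the same fold change, 5 members passed in Ctrl TFs (*Cxcl1*, *Cxcl5*, *Ccl2*, *Ccl7* and *Il33*), where 9.44% of all genes did. In cKO TFs 1 passed against 11.6% of all genes, and in gesicle-treated TFs 3 against 9.41%. DESeq2, the tool the authors used, called 3 members in Ctrl TFs (*Cxcl1*, *Cxcl5* and *Ccl7*), where it called 2.43% of 28521 genes with counts. It called 1 member in cKO TFs (*Tnfrsf11b*) against 3.12%, and 1 in gesicle-treated TFs (*Cxcl1*) against 2.45% of 29727 genes. The libraries of the 2 O2 levels did not overlap for 3 of 9 members in Ctrl TFs, 2 of 9 in cKO TFs and 4 of 10 with gesicles, against 30.1%, 20.6% and 24% of all genes tested. The median member was higher in 1% O2 by 0.44, 0.30 and 0.28 on the log2 scale in the Ctrl, cKO and gesicle-treated arms, where the median of all genes was at 0, -0.029 and -0.02.

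Averaged over the 3 arms in 1 fit of the 18 libraries, a comparison added after the values had been seen, *Cxcl5* and *Cxcl1* rose in 1% O2 and *Il33* fell. These were 3 of 10 members called where 10.5% of all genes were, and the same 3 passed at an unadjusted p under 0.05, as 13.8% of all genes did. The log2 change of the median member was 0.30, against -0.024 over all genes. This average counts untreated and gesicle-treated Ctrl libraries of a number as separate, although they may come from 1 mouse. Its p-values may therefore be too small. For the same reason, the same-numbered pairs of those arms counted below may not be independent.

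*Cxcl5*, the neutrophil chemokine, was at 6.57, 7.17 and 5.69 CPM in Ctrl TFs in 20% O2 (replicates 1, 2 and 3) and at 37.8, 12.7 and 19.2 CPM in 1% O2. It was at 4.77, 4.33 and 12.7 CPM in cKO TFs in 20% O2 and at 15.4, 7.22 and 24.5 CPM in 1% O2. With gesicles it was at 8.66, 5.57 and 5.82 CPM in 20% O2 and at 19.9, 12.1 and 14.8 CPM in 1% O2. The O2 groups were apart in Ctrl and in gesicle-treated TFs and overlapped in cKO TFs, where replicate 3 was high at both O2 levels. The library in 1% O2 was above the one with the same number in 20% O2 in 9 of 9 pairs. The log2 fold change was 1.85 ± 0.52 (SE) in Ctrl, 1.11 ± 0.52 in cKO and 1.22 ± 0.47 in gesicle-treated TFs, with adjusted p = 0.0988, 0.255 and 0.182 in edgeR. With the replicate number as a block within genotype, an alternative added after the values were seen, *Cxcl5* was called in Ctrl TFs (1.72, adjusted p = 0.0327) and with gesicles (1.22, adjusted p = 0.0151). Over the arms it was 1.39 ± 0.27, a 2.62-fold rise (edgeR, adjusted p = 0.00203), and the call held in all 31 alternatives run, with log2 fold changes of 1.15 to 1.61. Among the alternatives, here and for the members below, the unadjusted p is a looser rule on the same fit that could not end a call.

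*Cxcl1*, which encodes a second ligand of the same receptor, was at 1.72, 2.45 and 2.04 CPM in Ctrl TFs in 20% O2 and at 6.98, 3.04 and 5.49 CPM in 1% O2. In cKO TFs it was at 1.76, 2.67 and 2.81 CPM in 20% O2 and at 1.14, 2.96 and 3.95 CPM in 1% O2, and with gesicles at 2.62, 2.22 and 2.76 CPM and then at 5.95, 3.78 and 6.62 CPM. The O2 groups did not overlap in Ctrl and gesicle-treated TFs and overlapped in cKO TFs, where replicate 1, the smallest library with 8 counts of *Cxcl1*, was the lowest of all 18. *Cxcl1* was higher in 1% O2 in 8 of 9 same-numbered pairs. Its log2 fold change was 1.33 ± 0.40 in Ctrl, 0.23 ± 0.40 in cKO and 1.11 ± 0.36 in gesicle-treated TFs (edgeR, adjusted p = 0.122, 0.785 and 0.119), and 0.89 ± 0.21 over the arms (adjusted p = 0.00656). The block within genotype gave 1.27 with adjusted p = 0.105 in Ctrl TFs and 1.08 with adjusted p = 0.0404 with gesicles in edgeR. Without the libraries numbered 3 the averaged change of *Cxcl1* was 0.74 with adjusted p = 0.167, the 1 alternative of 31 that ended the call. The difference of the *Cxcl1* response between cKO and Ctrl TFs was -1.10 ± 0.56 on the log2 scale (edgeR, adjusted p = 1), with a 95% interval of -2.32 to 0.13.

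*Il33*, the alarmin, was the member that fell. It had 9, 88 and 15 counts in Ctrl TFs in 20% O2 and 6, 10 and 8 in 1% O2, or 0.241, 2.60 and 0.456 CPM against 0.166, 0.298 and 0.207 CPM. In cKO TFs it was at 0.358, 1.45 and 0.725 CPM in 20% O2 and at 0, 0.173 and 0.350 CPM in 1% O2, where the 0 came from the smallest library, with a floor of 0.437 CPM. With gesicles it was at 0.556, 4.59 and 0.670 CPM in 20% O2 and at 0.058, 0.647 and 0.120 CPM in 1% O2. Replicate 2 was the highest library of each 20% O2 group. The groups overlapped in Ctrl and gesicle-treated TFs and met at 0.350 and 0.358 CPM in cKO TFs, and *Il33* was lower in 1% O2 in 7 of 7 same-numbered pairs in which both libraries held more than 3 counts. The log2 fold change was -2.28 ± 0.88 in Ctrl, -1.93 ± 0.92 in cKO and -2.83 ± 1.04 in gesicle-treated TFs (edgeR, adjusted p = 0.228, 0.27 and 0.165), and -2.34 ± 0.62 over the arms (adjusted p = 0.0123), a 5.06-fold lower level. The block within genotype gave -1.74 with adjusted p = 0.221 in Ctrl TFs and -2.73 with adjusted p = 0.0112 with gesicles in edgeR. Without the libraries numbered 2 the averaged change of *Il33* was -1.59 with adjusted p = 0.0449, and without those numbered 3 it was -2.77 with adjusted p = 0.0894, the 1 alternative of 30 with a value for it in which it was not called. Thinned counts are not among these 30, and there *Il33* was not among the members called.

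The summed level of endothelial markers, most of it *Tek*, was lower in 1% O2 as well. It was 14.2 to 30.4 CPM in Ctrl TFs in 1% O2 against 30.3 to 46.9 CPM in 20% O2, 19.9 to 44.1 against 39.6 to 78 CPM in cKO TFs and 19.7 to 27.6 against 28.1 to 62.8 CPM with gesicles. *Kdr* and *Tek*, 2 of the 3 markers tested, were called lower over the arms, whereas *Egfl7* was higher by 0.45 ± 0.16 (edgeR, adjusted p = 0.057) and had a higher fitted level in each arm. The levels of *Kdr* were at or near the floor, with means of 0.0161 CPM in 1% and 0.304 CPM in 20% O2. Of the 8 mural markers *Notch3* was called lower and *Rgs5* higher. Leukocyte markers, of which 0 of 6 tested were called, summed to 20.8 to 28.8 CPM in Ctrl TFs in 20% O2 and to 25.1 to 34.6 CPM in 1% O2, to 21.8 to 39.4 and 27.3 to 32.7 CPM in cKO TFs and to 22.9 to 36.2 and 23.6 to 36.9 CPM with gesicles. Whether cells of these types were present, and their part in the changes of *Cxcl5*, *Cxcl1* and *Il33*, was not tested.

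**Figure D2:**
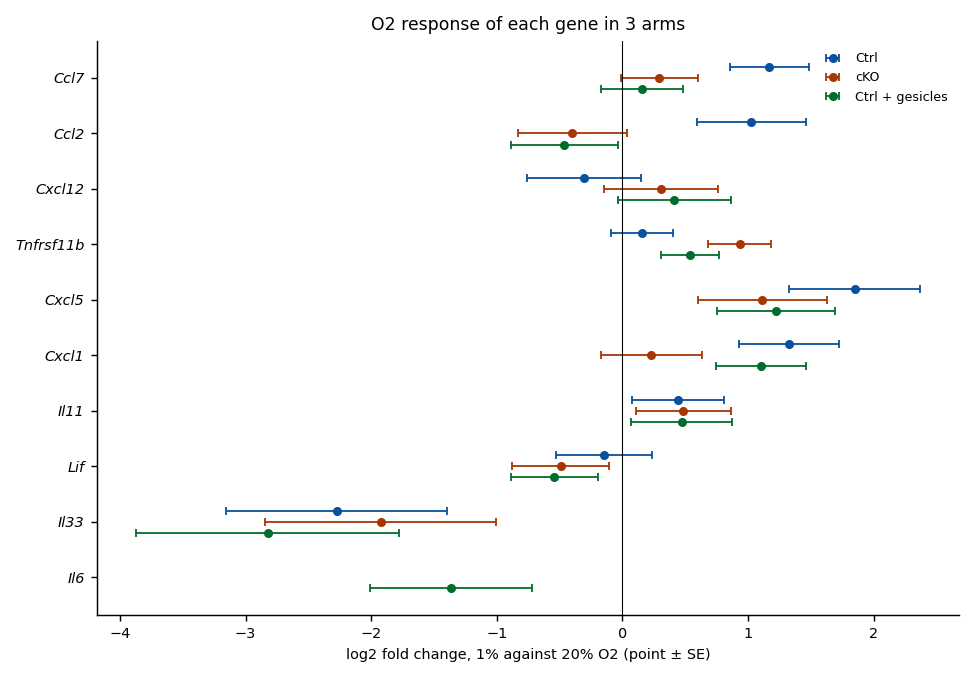
Log2 fold change of each gene between 1% and 20% O2 (horizontal axis, point ± SE from edgeR, n = 3 libraries per group) in Ctrl, cKO and gesicle-treated TFs. *Cxcl5* lies above 0 and *Il33* below 0 in all 3 arms, while *Ccl2* lies at 1.03 in Ctrl TFs and below 0 in the other arms. *Il6* is drawn for gesicle-treated TFs only, as it was not tested in the fit of Ctrl and cKO libraries.

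The monocyte chemokines had their clearest O2 difference in Ctrl TFs. *Ccl7* was at 155, 137 and 121 CPM in Ctrl TFs in 20% O2 and at 491, 177 and 256 CPM in 1% O2, groups that did not overlap. Its log2 fold change was 1.17 ± 0.31 (edgeR, unadjusted p = 0.00271, adjusted p = 0.082), the smallest adjusted p of a member in that comparison, and 0.66 without replicate 1 of Ctrl 1% O2 (adjusted p = 0.281). In cKO TFs *Ccl7* was at 143, 203 and 173 CPM in 20% O2 and at 272, 168 and 194 CPM in 1% O2, and with gesicles at 273, 255 and 239 CPM and then at 364, 157 and 332 CPM. Both pairs of groups overlapped. The change was 0.30 ± 0.31 in cKO and 0.16 ± 0.33 in gesicle-treated TFs on the log2 scale, with edgeR's adjusted p at 0.634 and 0.851. Averaged over the arms, *Ccl7* was higher by 0.54 ± 0.19 (adjusted p = 0.0487), a change of 1.45-fold that is under the fold change minimum, and by 0.23 with adjusted p = 0.406 without the libraries numbered 1.

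*Ccl2* was at 65.9, 91.7 and 50.6 CPM in Ctrl TFs in 20% O2 and at 252, 73.3 and 96.7 CPM in 1% O2. It was at 104, 131 and 115 CPM in cKO TFs in 20% O2 and at 140, 60.2 and 65.6 CPM in 1% O2, and with gesicles at 129, 197 and 155 CPM and then at 158, 65.5 and 126 CPM. All 3 pairs of groups overlapped. Replicate 1 was the highest library in 1% O2 in each arm, and *Ccl2* was higher in 1% O2 in 4 of 9 same-numbered pairs. The log2 fold change was 1.03 ± 0.44 in Ctrl TFs (edgeR, adjusted p = 0.269) and 0.30 without replicate 1 of Ctrl 1% O2, -0.40 ± 0.43 in cKO and -0.46 ± 0.43 in gesicle-treated TFs. Over the arms it was 0.05 ± 0.25, with a 95% interval of -0.47 to 0.57.

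*Tnfrsf11b*, the osteoprotegerin gene, had its largest O2 difference in cKO TFs. It was at 21.1, 25.8 and 27.6 CPM in cKO TFs in 20% O2 and at 29.3, 53.6 and 57.9 CPM in 1% O2, groups that did not overlap. The log2 fold change was 0.93 ± 0.25 (edgeR, unadjusted p = 0.00297, adjusted p = 0.0765). It was 0.88 with the block within genotype (adjusted p = 0.0411), and 1.19 with adjusted p = 0.0286 without cKO 1% O2 replicate 1, the smallest library. In Ctrl TFs *Tnfrsf11b* was at 31.6, 36.4 and 27.9 CPM in 20% O2 and at 25.5, 44.1 and 36.8 CPM in 1% O2 (log2 fold change 0.16 ± 0.25), and with gesicles at 33.5, 26.0 and 25.6 CPM and then at 38.5, 45.8 and 39.1 CPM (0.54 ± 0.23). The groups overlapped in Ctrl TFs and were apart with gesicles, and 8 of 9 same-numbered pairs were higher in 1% O2. Over the arms the change of *Tnfrsf11b* was 0.54 ± 0.13 (edgeR, adjusted p = 0.00872), or 1.45-fold, which passed the p-value limit and not the fold change minimum.

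The interleukin-6 family and *Cxcl12* showed no O2 difference that passed the test. *Il11* was at 2.81 ± 1.08 CPM in Ctrl TFs in 20% O2 and 3.80 ± 1.58 CPM in 1% O2 (mean ± SD, n = 3), at 2.37 ± 0.246 and 3.40 ± 1.25 CPM in cKO TFs, and at 2.84 ± 1.35 and 3.94 ± 1.59 CPM with gesicles. Its log2 fold change was 0.44, 0.48 and 0.47 in the 3 arms and 0.46 ± 0.23 over them (edgeR, adjusted p = 0.165), with 8 of 9 same-numbered pairs higher in 1% O2. *Lif* had mean levels of 2.32 and 2.09 CPM in Ctrl, 2.97 and 1.97 CPM in cKO and 3.35 and 2.30 CPM in gesicle-treated TFs in 20% and 1% O2. It was lower in 1% O2 in 7 of 9 pairs, and changed by -0.40 ± 0.20 over the arms (edgeR, adjusted p = 0.165). *Cxcl12* changed by 0.14 ± 0.26 (adjusted p = 0.741), with a 95% interval of -0.42 to 0.69. *Il6* had 10, 13 and 2 counts in Ctrl TFs in 20% O2 and 5, 5 and 11 in 1% O2, and 2, 1 and 1 and then 0, 5 and 0 in cKO TFs, levels at or near the floor. With gesicles *Il6* had 28, 28 and 34 counts in 20% O2 and 11, 4 and 10 in 1% O2, or 0.651 ± 0.0186 against 0.250 ± 0.105 CPM, groups that did not overlap (log2 fold change -1.36 ± 0.65, edgeR, adjusted p = 0.292).

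**Figure D3:**
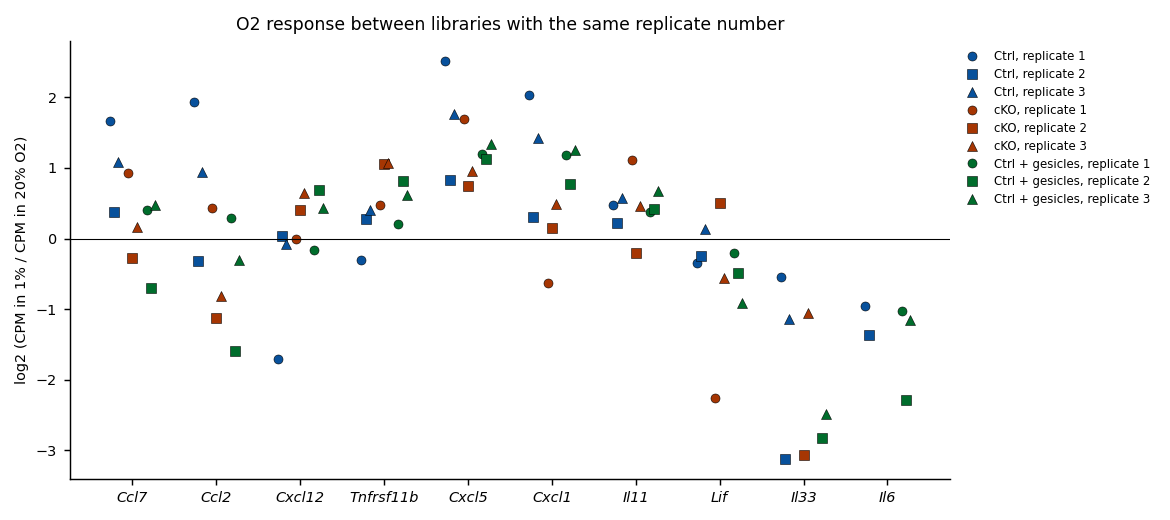
Log2 ratio of CPM in 1% O2 to CPM in 20% O2 (vertical axis) between libraries with the same replicate number, for each gene (horizontal axis), in Ctrl, cKO and gesicle-treated TFs, where both libraries held more than 3 counts. *Cxcl5* lies above 0 in 9 of 9 pairs, and *Ccl2* and *Ccl7* of replicate 1 lie above those of the other replicates in Ctrl and cKO TFs.

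The second question was whether loss of *Hif1a* in the *Scx* lineage changed these genes. In edgeR 0 of 9 members were called between cKO and Ctrl TFs in 20% O2, where 0.347% of all genes were called, 0 in 1% O2 against 0.0379%, and 0 on the average over both O2 levels against 3.78%. At an unadjusted p under 0.05 the members that passed were 0 in 20% O2 (8.53% of all genes), 2 in 1% O2 (9.77%) and 1 on the average (11.2%). DESeq2 called 0, 0 and 1 members, where it called 1.51%, 1.01% and 4.39% of 28521 genes. Groups of cKO and Ctrl libraries did not overlap for 2 of 9 members in 20% O2 (*Ccl2* and *Tnfrsf11b*) and 1 in 1% O2 (*Cxcl12*), against 21.1% and 27.4% of all genes. The average counts the 20% and 1% O2 libraries of a number as separate, although they may come from 1 mouse. Its p-values may therefore be too small. With the libraries of a genotype and number summed, edgeR called 0 members and 0.15% of 16715 genes.

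The 1 member that passed on the unsummed average, at an unadjusted p and in DESeq2, was *Cxcl12*. It was at 339, 267 and 149 CPM in cKO TFs in 20% O2 and at 339, 356 and 234 CPM in 1% O2. In Ctrl TFs it was at 130, 198 and 161 CPM in 20% O2 and at 40.1, 202 and 153 CPM in 1% O2. In 1% O2 every cKO library lay above every Ctrl library, whereas in 20% O2 cKO replicate 3 lay within the Ctrl range, and Ctrl 1% O2 replicate 1 stood far below the others. *Cxcl12* was higher in cKO TFs by 0.92 ± 0.32 on the log2 scale on the average (edgeR, unadjusted p = 0.0141, adjusted p = 0.0949), by 0.62 ± 0.45 in 20% O2 (adjusted p = 0.517) and by 1.23 ± 0.46 in 1% O2 (adjusted p = 0.238). The averaged difference was called in DESeq2 (0.92, adjusted p = 0.025) and with *Xist* counts, which mark female mice, as a covariate (1.27, adjusted p = 0.0423). It was 0.70 without Ctrl 1% O2 replicate 1 (adjusted p = 0.0669) and 0.47 without all libraries numbered 1 (adjusted p = 0.186). Markers of mural cells were lower in cKO TFs on the average: 3 of 8 were called (*Cspg4* at 13.5 against 42 CPM, *Myh11* at 13.4 against 36.7 CPM and *Rgs5* at 7.90 against 13.2 CPM). Their summed level was 1080 to 1810 CPM in cKO and 1540 to 2370 CPM in Ctrl TFs in 20% O2, and 1370 to 1450 and 1300 to 1910 CPM in 1% O2, and its part in the *Cxcl12* values was not tested.

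*Cxcl1* was the other member past an unadjusted p of 0.05 in 1% O2, with 2.68 ± 1.43 CPM in cKO against 5.17 ± 1.99 CPM in Ctrl TFs (log2 difference -0.87 ± 0.40, edgeR, unadjusted p = 0.0485, adjusted p = 0.295). The groups overlapped, and without the smallest library, cKO 1% O2 replicate 1, the difference was -0.57 with adjusted p = 0.55. *Ccl2* was at 117 ± 13.6 CPM in cKO and 69.4 ± 20.8 CPM in Ctrl TFs in 20% O2, groups that did not overlap, and at 88.5 ± 44.6 and 141 ± 97.3 CPM in 1% O2. These differences had opposite signs, 0.74 ± 0.43 and -0.68 ± 0.43 on the log2 scale (edgeR, adjusted p = 0.421 and 0.416). For *Il11*, *Lif*, *Il33*, *Cxcl5*, *Ccl7* and *Tnfrsf11b* the averaged difference lay between -0.22 and 0.18. The 95% interval ran from -0.59 to 0.36 for *Ccl7*, from -0.36 to 0.41 for *Tnfrsf11b* and from -1.57 to 1.20 for *Il33*. *Il6*, not tested here, had at most 2 counts in each cKO library in 20% O2 and 2 to 13 in the Ctrl libraries.

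**Figure D4:**
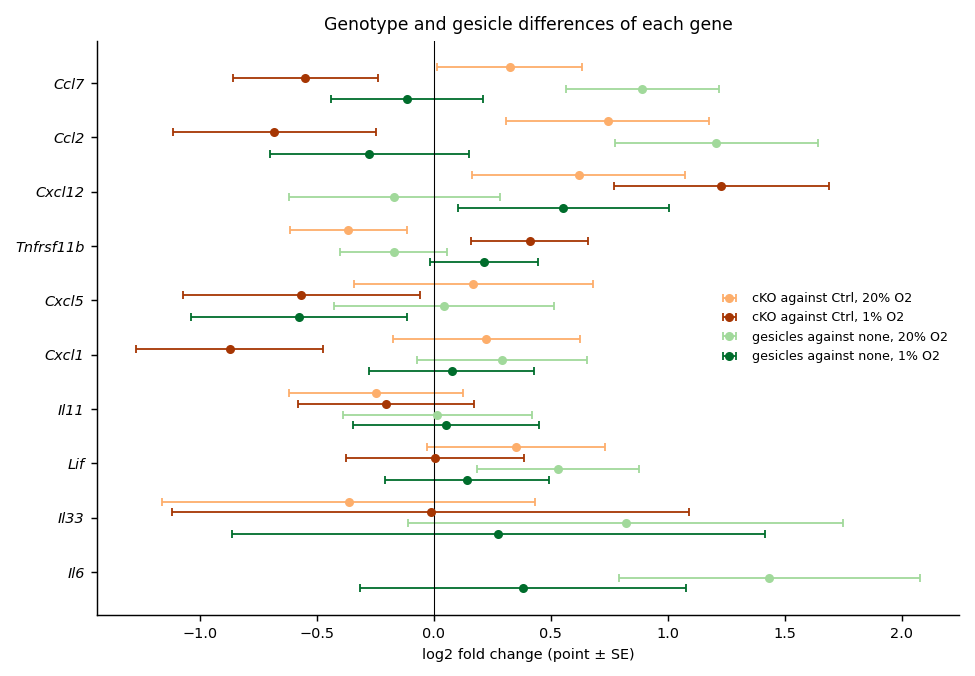
Log2 fold change of each gene (horizontal axis, point ± SE from edgeR, n = 3 libraries per group) for cKO against Ctrl TFs and for gesicle-treated against untreated Ctrl TFs, in 20% and in 1% O2. *Cxcl12* lies above 0 in cKO TFs at both O2 levels, and *Ccl2*, *Ccl7* and *Il6* lie above 0 with gesicles in 20% O2, with the first pair near or below 0 in 1% O2.

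The third question was how the same genes differed between Ctrl TFs with and without Cre gesicles. The gene-level value of *Hif1a* with gesicles was 362 ± 31 CPM in 20% O2 and 383 ± 12.3 CPM in 1% O2 (mean ± SD, n = 3). Whether gesicles deleted *Hif1a* in these cells cannot be read from a count over the whole gene. In 20% O2 *Ccl2*, *Ccl7* and *Il6* had higher levels with gesicles, in groups that did not overlap, as was so for 12.5% of all genes in either direction. In edgeR 0 of 10 members passed the adjusted test, where 0.0247% of all genes were called. The 3 members passed at an unadjusted p under 0.05, as 2.41% of all genes did, and DESeq2 called 0 members and 0.155% of 29727 genes. *Ccl2* was at 160 ± 33.9 against 69.4 ± 20.8 CPM, a log2 difference of 1.21 ± 0.43 (edgeR, unadjusted p = 0.0132, adjusted p = 1), with same-numbered log2 ratios of 0.97, 1.10 and 1.62. *Ccl7* was at 256 ± 17.3 against 138 ± 17.2 CPM, a log2 difference of 0.89 ± 0.33 (unadjusted p = 0.0152, adjusted p = 1 in edgeR), with ratios of 0.82, 0.89 and 0.99. *Il6* was at 0.651 ± 0.0186 against 0.238 ± 0.164 CPM, a log2 difference of 1.44 ± 0.65 (unadjusted p = 0.0411, adjusted p = 1 in edgeR), from 28, 28 and 34 counts against 10, 13 and 2.

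In 1% O2 the gesicle difference was called for 0 of 10 members and 0% of all genes in edgeR, 0 members passed at an unadjusted p under 0.05 against 1.45% of all genes, and DESeq2 called 0 members. *Ccl2* was at 116 ± 46.9 with and 141 ± 97.3 CPM without gesicles, *Ccl7* at 285 ± 111 and 308 ± 163 CPM, and *Il6* at 0.250 ± 0.105 and 0.191 ± 0.0819 CPM. Each pair of groups overlapped, and the log2 differences were -0.28 ± 0.43, -0.12 ± 0.33 and 0.38 ± 0.70. *Cxcl12*, which was higher in cKO TFs, differed with gesicles by -0.17 ± 0.45 in 20% O2 and 0.55 ± 0.45 in 1% O2 (edgeR, adjusted p = 1).

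Whether the O2 response depended on genotype or on gesicles was tested as an interaction, and 0 members and 0% of all genes were called in either test, with DESeq2 also calling 0 members. At an unadjusted p under 0.05, *Ccl2* and *Tnfrsf11b* passed for genotype, as 1.84% of all genes did, and *Ccl2* and *Ccl7* for gesicles, as 1.24% did. The *Ccl2* response was smaller by 1.43 ± 0.61 on the log2 scale in cKO than in Ctrl TFs, that is an interaction of -1.43 (edgeR, unadjusted p = 0.0378, adjusted p = 1), and the *Tnfrsf11b* response was larger by 0.78 ± 0.35 (unadjusted p = 0.0482, adjusted p = 1 in edgeR). Both interactions share the Ctrl libraries, among them Ctrl 1% O2 replicate 1.

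How the members varied together over the 18 libraries is given as a description, since the libraries share groups, O2 levels and TMM scaling and may share mice. *Ccl2* and *Ccl7*, the neighbours on chromosome 11, were the most alike pair (Pearson r of log2 CPM = 0.80, and 0.89 after each group's mean was taken out), and *Cxcl1* and *Cxcl5* had r = 0.66 (0.42 within groups). *Il11* went with *Cxcl5* (r = 0.73) and *Ccl7* (r = 0.69), and *Lif* with *Il33* (r = 0.64). *Cxcl12* ran against the inflammatory chemokines, with r = -0.59 for *Ccl7* and -0.45 for *Cxcl5*, and within groups -0.76 and -0.79. Ctrl 1% O2 replicate 1 held the lowest *Cxcl12* (40.1 CPM) and the highest *Ccl7* (491 CPM), *Ccl2* (252 CPM) and *Cxcl5* (37.8 CPM) of all libraries. Correlations without it were not computed. The genes whose pattern over the 18 libraries was most like each member's were *Zfp93* and *Heph* for *Cxcl5* (r = 0.935 and 0.911), *Vezt* for *Cxcl1* (0.896) and *Hspa5* and *Nfil3* for *Tnfrsf11b* (0.915 and 0.901). They were *Oas1a* and *Gbp9* for *Il6* (0.898 and 0.886), *Lingo2* and *Chrm3* for *Il33* (0.879 and 0.861), and *Msantd3* and *Traf3ip2* for *Ccl7* (0.867 and 0.860). For *Ccl2* they were *Ppm1g* and *Il15* (0.856 and 0.82), for *Cxcl12* *Hemk1* and *Aig1* (0.891 and 0.841), for *Lif* *Efhb* and *Usp27x* (0.903 and 0.892) and for *Il11* *Psd* and *1700017M07Rik* (0.862 and 0.85).

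**Figure D5:**
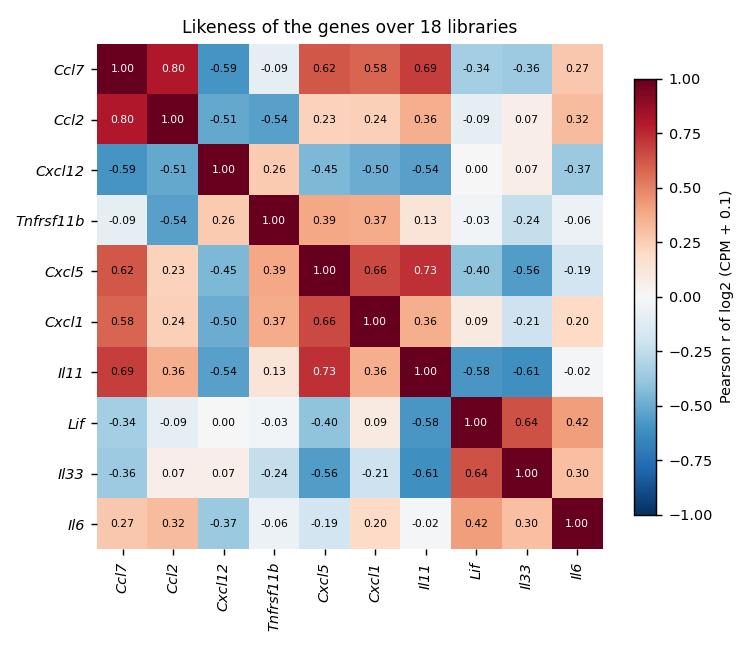
Pearson correlation of log2 (CPM + 0.1) between each pair of the 10 genes over the 18 libraries (colour and number in each cell, rows and columns ordered by level per kilobase). *Ccl7* and *Ccl2* have the highest value off the diagonal, 0.80, and *Cxcl12* has negative values with *Ccl7*, *Ccl2*, *Cxcl5*, *Cxcl1* and *Il11*.

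Genes around the members in the same pathways were counted for comparison. Among other cytokines and chemokines, 25 of 44 listed were tested, and over the arms 4 rose and 2 fell in 1% O2, in a comparison that called 10.5% of all genes. *Cxcl3*, a further ligand of CXCR2, rose from 0.0717 to 0.436 CPM (log2 fold change 2.44 ± 0.52, edgeR, adjusted p = 0.0035). *Cxcl14*, a chemokine of epithelia and stroma, fell from 79 to 34.9 CPM (-1.20 ± 0.38, adjusted p = 0.0302) and *Cntf*, a neurotrophic cytokine related to *Lif*, from 0.553 to 0.198 CPM (-1.78 ± 0.47, adjusted p = 0.0129). The levels of *Cxcl3* and *Cntf* were near the floor. Of a list of cytokine and chemokine receptors and decoys 0 of 11 tested changed with O2 over the arms in edgeR, at an unadjusted p as well. Of the 24 NF-kB subunits, regulators and targets tested, 4 rose and 2 fell: *Ptx3*, a pentraxin of the innate response, rose from 195 to 353 CPM (0.85 ± 0.17, adjusted p = 0.00223), and *Icam1*, an adhesion molecule, from 11.9 to 22.1 CPM (0.92 ± 0.22, adjusted p = 0.00691). *Map3k14*, the kinase of the noncanonical pathway, fell from 9.89 to 5.36 CPM (-0.90 ± 0.20, adjusted p = 0.00496). Among the 12 genes of JAK-STAT3 signalling and its feedback *Bcl3* rose (0.70 ± 0.15, adjusted p = 0.00313), and among the 12 AP-1 and C/EBP factors *Cebpd* rose (0.59 ± 0.14, adjusted p = 0.00692). Of 19 upstream receptors *Il17rd* fell (-1.19 ± 0.25, adjusted p = 0.0027). The median log2 change of these lists lay between -0.11 and 0.24, against -0.024 over all genes.

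Within single arms 1.88% of all genes were called in Ctrl, 2.1% in cKO and 2.41% in gesicle-treated TFs. Of the 24 NF-kB genes tested, 2 rose in Ctrl TFs. In cKO TFs 3 of them rose and 1 fell, and with gesicles 2 rose and 1 fell. Of the 25 other cytokines tested, 1 rose in Ctrl TFs, 1 fell in cKO TFs and 0 were called with gesicles. Of the 19 upstream receptors 1 rose in cKO TFs. In Ctrl TFs *Mif*, which encodes a cytokine that slows macrophage migration, rose to 138 from 62.1 CPM (1.16 ± 0.19, edgeR, adjusted p = 0.00848), as did *Ikbkg*, the regulatory subunit of the IKK complex (0.72 ± 0.13, adjusted p = 0.0156), and *Vcam1*, an adhesion molecule (0.61 ± 0.13, adjusted p = 0.0359). In cKO TFs *Vcam1* rose to 1120 from 550 CPM (1.03 ± 0.13, adjusted p = 0.00233), *Ptx3* by 1.21 ± 0.28 (adjusted p = 0.0453) and *Tlr2*, a receptor of microbial lipoproteins, by 0.92 ± 0.20 (adjusted p = 0.0334). *Nfkb2* fell there to 15.3 from 29.6 CPM (-0.93 ± 0.15, adjusted p = 0.00792) and *Cntf* to 0.0359 from 0.642 CPM (-3.62 ± 0.83, adjusted p = 0.0453). The *Cntf* level in 1% O2 was at the floor. With gesicles *Ikbkg* rose by 0.84 ± 0.14 (adjusted p = 0.00373) and *Vcam1* by 0.78 ± 0.13 (adjusted p = 0.00352), and *Nfkb2* fell (-0.72 ± 0.13, adjusted p = 0.0072). All 3 arms thus held *Vcam1* among the called genes of the NF-kB list.

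Between genotypes, averaged over O2, 2 of the 25 other cytokines tested were higher and 2 lower in cKO TFs, where 3.78% of all genes were called. The p-values in this paragraph rest on the average that counts both O2 libraries of a number as separate, and may be too small. With those libraries summed, 0.15% of all genes were called. *Clcf1*, a cytokine of the interleukin-6 family, was at 11 against 19.9 CPM in Ctrl TFs (-0.85 ± 0.10, edgeR, adjusted p = 0.00216), *Csf1*, the macrophage growth factor, at 1660 against 2630 CPM (-0.67 ± 0.13, adjusted p = 0.0192), and *Ccl9* at 7.72 against 4.35 CPM (0.83 ± 0.20, adjusted p = 0.0381). Of 11 receptors and decoys 2 were higher: *Ackr4*, a scavenging chemokine receptor, at 2.53 against 0.861 CPM (1.56 ± 0.31, adjusted p = 0.0215), and *Il11ra1*, the receptor of the *Il11* product, at 281 against 165 CPM (0.75 ± 0.14, adjusted p = 0.0157), which is uncertain because near-identical copies of *Il11ra1* may share its reads. *Socs3*, the feedback inhibitor of gp130 signalling, was higher (0.60 ± 0.15, adjusted p = 0.0402) and the AP-1 gene *Fosl2* lower (-1.05 ± 0.23, adjusted p = 0.029), each 1 of the 12 genes of its list. Of the NF-kB and the upstream receptor lists 0 genes were called, and 2 and 0 passed at an unadjusted p under 0.05.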

How the data were processed

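Poly-A RNA of 18 TF libraries was sequenced by the authors, who aligned the reads to GRCm38 (STAR) and obtained gene values from RSEM 1.3.3. The deposited values are expected counts that had been rounded to integers and not normalized. No 2 libraries were copies (smallest chi-square per degree of freedom 15.4). Positions and exon lengths came from GENCODE M21, and promoters from RefSeq.

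After filterByExpr and TMM scaling, edgeR 4.0.16 in R 4.3.3 was used for the quasi-likelihood F test with a term for each group. Ctrl and cKO TFs were fitted together (12 libraries, 15850 genes), and gesicle comparisons and the average over arms used all 18 (16174 genes), with Benjamini-Hochberg adjustment over all genes. SE was taken as the size of the log2 fold change over the root of F, and intervals are at 95%. CPM use TMM factors over the 18 libraries. Alternatives were DESeq2 1.42.0, RLE factors, no filter, CPM above 1 in at least 3 libraries, thinned counts, *Xist* as a covariate, the replicate block, other sets of libraries, and each library left out. For the averaged genotype difference, the libraries of a genotype and number were also summed.

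Same-numbered Ctrl libraries deviated together between O2 levels (r = 0.271 to 0.458), as gesicle-treated and untreated ones did (0.193 to 0.462). Not every pair did so between O2 levels in cKO TFs (0.0921 to 0.368) and with gesicles (-0.00612 to 0.216), and cKO and Ctrl libraries of a number are different mice. The 10 genes and the lists were chosen with earlier results of these data known. The text names all 10, up to 3 called genes per list and comparison with the largest change, and the 2 genes most like each member, of which 1 is not reported here.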

Additional observations from a re-analysis of the deposited data

Results flagged for a closer look

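The O2 response of *Ccl2* differed between genotypes by -1.43 on the log2 scale, as it was 1.03 in Ctrl and -0.40 in cKO TFs. It and the others given here were picked out because the interaction itself passed the 0.05 limit without adjustment. After adjustment over all genes none passed (edgeR's quasi-likelihood test, adjusted p = 1 for each). The response of *Tnfrsf11b* differed by 0.78, with 0.16 in Ctrl and 0.93 in cKO TFs, and the libraries in 1% O2 were higher in 2 of 3 pairs in Ctrl and 3 of 3 in cKO TFs.

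The response of *Ccl2* also differed with gesicles, by -1.48, and that of *Ccl7* by -1.01, as *Ccl7* changed by 1.17 without and 0.16 with gesicles. Over the alternatives the *Ccl2* values ran from -1.89 to -0.70 for genotype and from -1.77 to -0.72 for gesicles, and that of *Ccl7* from -1.26 to -0.46, and each value nearest 0 was the one without Ctrl 1% O2 replicate 1, the library with the highest *Ccl2* (252 CPM) and *Ccl7* (491 CPM) of all.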

How the results depend on the processing

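Counts of members called moved with the tool. In Ctrl TFs the O2 comparison called 0 members as reported, 2 with no filter on low counts (1.48% of all genes), 3 with DESeq2 (also when it had the replicate block), 5 at unadjusted p (9.44%), and 1, *Cxcl5*, each with all 18 libraries in 1 fit (2.68%) and with the replicate block within genotype (2.32%). DESeq2 called 2.43% of all genes, and 2.55% with the block. In cKO TFs it called 1, *Tnfrsf11b*, under each of these settings, which called 1.79% to 11.6% of all genes. With the plain replicate block in edgeR both stayed at 0. With gesicles it called 1 with the replicate block (*Il33*, 2.78% of all genes), 1 with DESeq2 (*Cxcl1*, 2.45%), and these and *Cxcl5*, 3 in all, each with DESeq2 and the block (2.87%), at unadjusted p (9.41%) and with the block within genotype (4.79%). The averaged genotype difference called 1, *Cxcl12*, with no filter, *Xist* as a covariate, DESeq2 (block or not), and at unadjusted p, settings that called 2.12% to 11.2% of all genes. With the libraries of a genotype and number summed it called 0 members (0.15% of all genes). At unadjusted p, 2 members passed for genotype in 1% O2, 2 and 2 in the interactions, and 3 for gesicles in 20% O2. Over the arms 3 were called, 5 without a fold change minimum (24.6% of all genes) and 1, *Cxcl5*, without the libraries numbered 3 (4.34%). With thinned counts 3 were called as well (9.53%), with *Tnfrsf11b* in the place of *Il33*. Leaving out each library in turn gave 0 to 1 members in Ctrl (1, *Ccl7*, without Ctrl 1% O2 replicate 2) and cKO TFs (1, *Tnfrsf11b*, without cKO 1% O2 replicate 1), 3 to 4 over the arms, and 0 in the other comparisons. No alternative reversed a sign among the changes past an unadjusted p of 0.05.

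With the replicate block within genotype, the averaged O2 change was 1.35 for *Cxcl5* (edgeR, adjusted p = 5.84e-05), 0.82 for *Cxcl1* (0.00355) and -2.19 for *Il33* (4.85e-04). That fit, the average over arms and the removal of all libraries of a number were chosen after seeing the data. *Il6* had 0 counts in 2 cKO 1% O2 libraries and *Il33* in 1, the smallest, whose floor is 0.437 CPM.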
